A study of Mus musculus with 3 samples.

Results

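The genes described here make up the DNA replication fork and its nucleotide supply. They are 40 listed genes that were looked up by symbol in GENCODE M21, and each matched 1 of the 54532 Ensembl genes in the deposited files. RNA was sequenced from mouse dura mater, the tough outer meninx, from cells that the labels describe as lacking CD45 and carrying CD31 and podoplanin. All mice had been inoculated with 4T1-DM cells, a dural metastasis model (4T1 is a mouse mammary carcinoma line), and the dorsal dura was taken on day 12. The 3 groups were ZOL+Ang2, ZOL and PBS, written here as in the labels, which state no strain, age or dose. Each group was 1 library from a pool of 6 mice, so there are no replicates and no test, and every value below describes 3 libraries.

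Replication begins where the origin recognition complex (ORC) with CDC6 and CDT1 loads the ring of MCM2 to MCM7. CDC45 and the GINS complex turn that ring into the active helicase, polymerase alpha-primase starts new strands, and polymerases delta and epsilon extend them on the PCNA clamp, which the RFC complex loads. Replication protein A (RPA) coats single strands, FEN1 and LIG1 join Okazaki fragments, and ribonucleotide reductase, thymidylate synthase and thymidine kinase supply nucleotides. Many of these genes are known E2F targets that are transcribed as cells enter S phase, and in resting endothelium they are usually low.

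The replication genes were for the most part at or near 0 reads in the PBS library, present without exception in the ZOL library and split in the ZOL+Ang2 library. Together they took 0.291% of reads in ZOL+Ang2 (exact 95% binomial interval 0.288% to 0.295%), 0.379% in ZOL (0.376% to 0.382%) and 0.0651% in PBS (0.0613% to 0.0691%). Of the 40 genes, 9 had 0 reads in ZOL+Ang2 and 2 more had 1 to 3 reads, in ZOL all 40 had at least 10 reads, and in PBS 16 had 0 reads and 7 had 1 to 3. Such low counts were common over all genes. Of all genes with at least 10 CPM in ZOL, 44.3% had at most 3 reads in PBS, beside 54.1% of the 37 replication genes at that level. In ZOL+Ang2 these shares were 17.3% and 24.3%. Their median level per exon length was 6.08 RPKM in ZOL+Ang2, 11.8 RPKM in ZOL and 0.375 RPKM in PBS, beside 4.06, 4.46 and 6.44 RPKM for the 10942 genes whose CPM averaged at least 10 over the libraries.

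The libraries differ in depth and make-up, which bears on each value below. Reads recovered from the RPKM values came to 9204901 in ZOL+Ang2, 16586760 in ZOL and 1675532 in PBS. CPM below are these reads relative to the library total, scaled between libraries by TMM (trimmed mean of M values). They are not divided by exon length. They serve to set 1 gene side by side across libraries, to filter genes by level and to give sums or medians over lists. A gene with 0 reads could by counting error alone have had up to 3 reads, which is 0.342 CPM in ZOL+Ang2, 0.191 CPM in ZOL and 1.61 CPM in PBS. The cDNA was amplified, and the labels mention no molecular identifiers, so intervals and such limits cover counting error only. They also take each read as an independent count, which was not tested. Among genes with 1 to 40 recovered reads, the count was even for 51.0% in ZOL+Ang2, 53.2% in ZOL and 61.0% in PBS. Limits and intervals that rest on a few PBS reads may therefore be too narrow. At its ZOL level, each of the 40 genes except Fen1 would have given more than 3 reads at the PBS depth. In bulk RNA fewer cells of a type and less RNA per cell cannot be told apart.

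**Figure D1:**
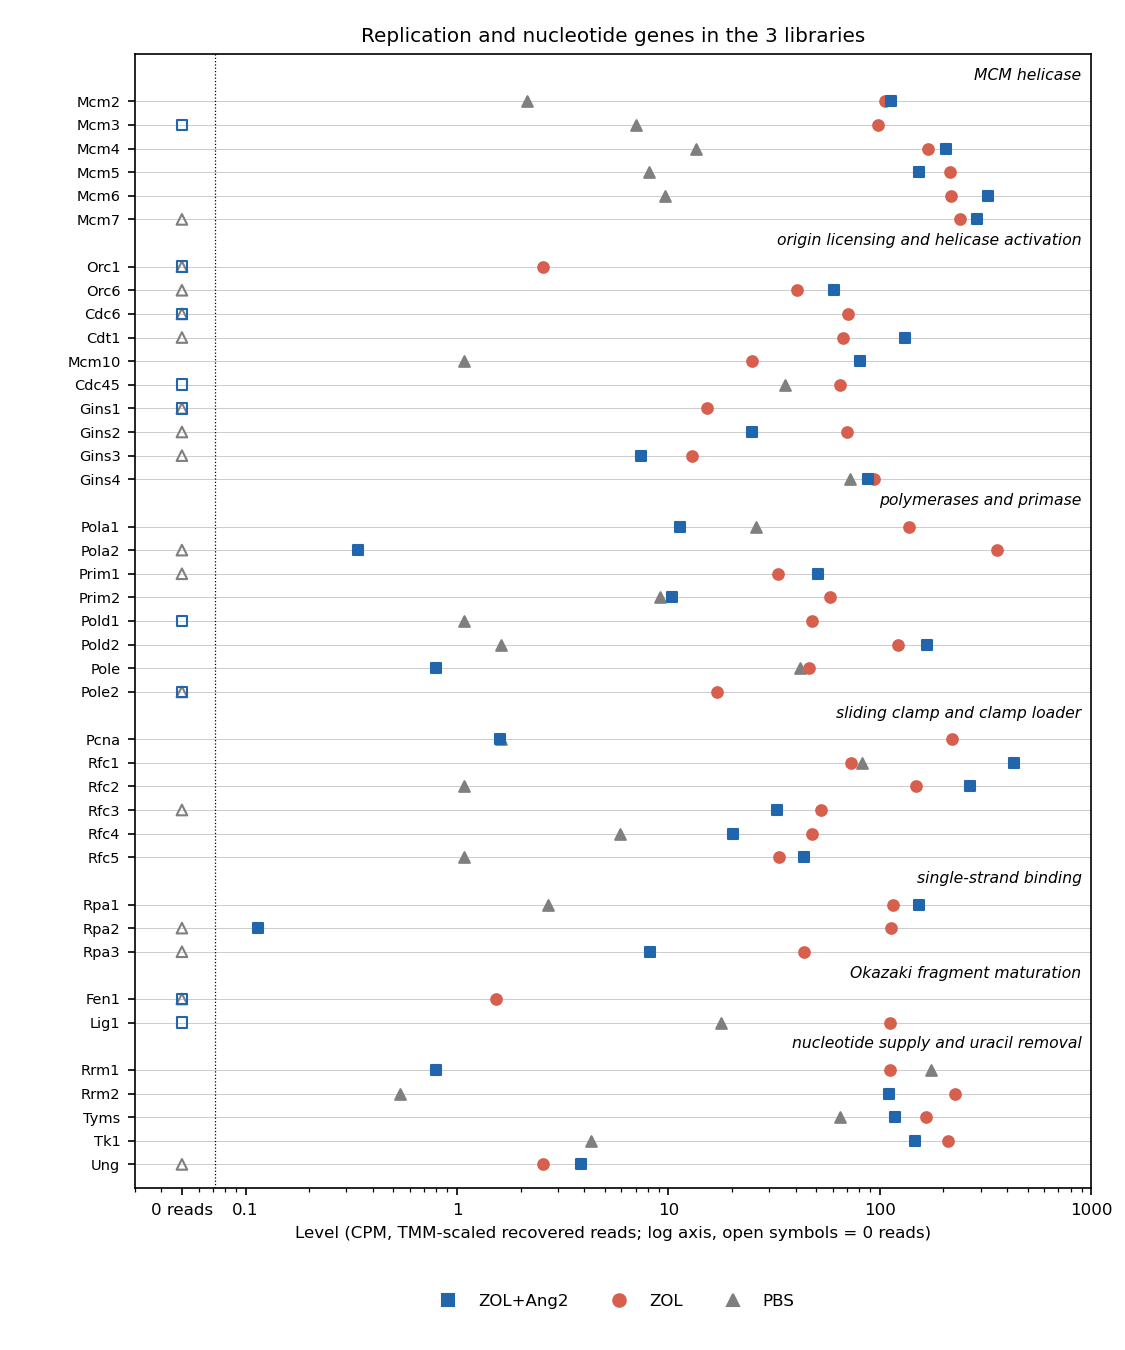
Level of each of the 40 genes in CPM (log axis), ordered by role, with squares for ZOL+Ang2, circles for ZOL and triangles for PBS, each 1 library. Open symbols at the left stand for 0 reads; 9 genes are there in ZOL+Ang2, none in ZOL and 16 in PBS.

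Promoter sequences are shown because most of the genes were higher in ZOL than in PBS and they parted in ZOL+Ang2. RefSeq promoters (GRCm38.p6) were at hand for 33 of the 40 genes. An E2F-type motif was searched as TTTCCCGC, TTTGGCGC, TTTCGCGC or TTTGCCGC on both strands. It lay within 250 bases before the start in 8 of the 33 genes (24.2%), Cdc6, Gins3, Mcm5, Mcm6, Mcm7, Orc1, Pola1 and Rfc3, against 2.16% of 27025 genes. With the next 50 bases included it was found in 13 of 33 (39.4%) against 2.60%, the further genes being Cdt1, Lig1, Mcm3, Pold1 and Pole2. The CCAAT motif was in 63.6% of the 33 against 37.5% of all genes, and TTTGAA, the core of the cell cycle homology region of mitotic promoters, in 15.2% against 18.3%. For 20 mitotic genes, of which 18 had a promoter, the shares in the 250 bases were 5.56% for the E2F-type motif, 88.9% for CCAAT and 44.4% for TTTGAA. The 250 bases before the start follow for 4 genes, 5′ to 3′, with E2F-type matches in capitals. Mcm5 (chr8:75109259-75109508, plus strand) and Mcm6 (chr1:128359706-128359955, minus strand) stayed high in ZOL+Ang2. Their paralogue Mcm3 (chr1:20820313-20820562, minus strand) had 0 reads there, and Pola1 (chrX:93632156-93632405, minus strand) was low.
Mcm5: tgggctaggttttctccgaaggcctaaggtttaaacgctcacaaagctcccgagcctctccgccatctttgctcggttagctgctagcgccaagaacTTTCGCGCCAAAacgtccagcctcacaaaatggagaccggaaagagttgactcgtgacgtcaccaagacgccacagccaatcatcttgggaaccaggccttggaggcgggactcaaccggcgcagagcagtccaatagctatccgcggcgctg
Mcm6: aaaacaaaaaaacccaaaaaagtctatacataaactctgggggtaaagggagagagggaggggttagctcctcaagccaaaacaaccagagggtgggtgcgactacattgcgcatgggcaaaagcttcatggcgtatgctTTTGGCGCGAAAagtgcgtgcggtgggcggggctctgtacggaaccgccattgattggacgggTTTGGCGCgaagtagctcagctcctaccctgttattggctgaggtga
Mcm3: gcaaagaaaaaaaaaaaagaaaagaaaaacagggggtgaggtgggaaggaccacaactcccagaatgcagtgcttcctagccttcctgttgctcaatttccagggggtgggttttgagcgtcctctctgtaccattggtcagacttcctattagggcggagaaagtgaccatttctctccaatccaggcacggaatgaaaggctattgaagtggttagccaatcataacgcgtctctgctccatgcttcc
Pola1: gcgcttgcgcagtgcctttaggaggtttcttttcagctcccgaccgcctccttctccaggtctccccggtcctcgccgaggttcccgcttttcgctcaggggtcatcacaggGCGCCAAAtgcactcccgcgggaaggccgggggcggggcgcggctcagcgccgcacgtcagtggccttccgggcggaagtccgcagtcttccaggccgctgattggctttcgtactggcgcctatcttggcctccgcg
In Mcm5, 2 overlapping matches began at -153 and -149 from the start. Mcm6 had an overlapping pair at -110 and -106 and a further match at -47, and Pola1 had 1 match at -138. Mcm3 had none in this window. In this window matches stood before Mcm5 and Mcm6, which were high in ZOL+Ang2, before Pola1, which was low there, and before Cdc6, which had 0 reads. The window matters, since Mcm3 had a match once the next 50 bases were included. Whether the motif bears on these levels was not tested.

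ZOL was set against PBS to see how the cells differed after ZOL. All 6 MCM genes, all 3 RPA genes, both genes of primase and most genes of origin licensing, the clamp loader and nucleotide supply were higher in ZOL, many by more than 10-fold. On the log2(CPM + 5) scale, 32 of the 40 genes (80%) were at least 2-fold higher and none was at least 2-fold lower, beside 49.2% and 29.4% of the 10942 genes tested. The median log2 fold over the 40 was 3.11 (3.32 with genes at 0 reads placed at their limit of 3 reads) and over all genes tested 0.94. The choice of scaling moves all genes: with median-of-ratios size factors the median of all genes was -0.17 and 47.3% of the genes past 2-fold were higher instead of 62.6%, while 31 of the 40 were higher and 1, Rrm1, was lower. Of the 40, 34 had a mean of at least 10 CPM, and Orc1, Gins1, Gins3, Pole2, Fen1 and Ung had not.

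The MCM genes encode the hexameric helicase that unwinds DNA. Mcm2 stood at 106 CPM in ZOL and 2.15 CPM in PBS (49.0-fold higher, exact 95% interval 19.1 to 180.2, from 4 PBS reads). Mcm4 had 170 CPM in ZOL and 13.5 CPM in PBS, 12.6-fold higher (8.53 to 19.5). Mcm5 had 215 CPM in ZOL and 8.07 CPM in PBS, 26.6-fold higher (16.1 to 47.7). The interval of Mcm2 overlaps those of both others, since PBS held few of its reads. Mcm6 stood at 218 CPM in ZOL and 9.69 CPM in PBS, and Mcm3 at 97.9 CPM in ZOL, with 13 reads in PBS (8.16-fold to 26.3-fold higher). Mcm7 (ENSMUSG00000029730; mm10 chromosome 5, 138164583 to 138172422) had 241 CPM in ZOL and 0 reads in PBS, at least 149-fold higher. Exons of Mcm7 overlap those of Cops6 and Ap4m1 by 64 and 321 bases on the opposite strand. Per exon length the 6 genes ranged from 10.1 RPKM (Mcm2) to 36.0 RPKM (Mcm7) in ZOL and from 0 RPKM (Mcm7) to 6.22 RPKM (Mcm4) in PBS.

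Origin licensing and helicase activation genes divided into those at 0 to 2 reads in PBS and a pair that PBS also held. Cdc6, the MCM loader, had 70.5 CPM in ZOL and 0 reads in PBS (at least 43.6-fold higher), and its partner Cdt1 had 66.9 CPM in ZOL and 0 reads in PBS (at least 41.4-fold higher). Orc6, Gins1, Gins2 and Gins3 had 40.8, 15.3, 70.0 and 13.0 CPM in ZOL, and each had 0 reads in PBS. Mcm10, which helps to start the helicase, had 24.8 CPM in ZOL and 1.08 CPM in PBS. The pair held by PBS were Gins4 and Cdc45. Gins4, a GINS subunit, had 93.6 CPM in ZOL and 72.7 CPM in PBS (1.29-fold higher, 1.08 to 1.55). Cdc45 had 64.8 CPM in ZOL and 35.5 CPM in PBS (1.82-fold higher, 1.42 to 2.38). Orc1 was low in each library, with 0 reads in ZOL+Ang2, 2.55 CPM in ZOL and 0 reads in PBS. Gins4 was therefore near its ZOL level in PBS while its 3 partners in the same complex were at 0 reads.

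Of the polymerase genes, Pola2, the B subunit of polymerase alpha (ENSMUSG00000024833; chromosome 19, 5940542 to 5964202), had 359 CPM in ZOL and 0 reads in PBS (at least 223-fold higher). Pola2 is also the gene of the 40 whose values did not come out as whole reads, so its reads are rounded. The primase genes Prim1 and Prim2 had 33.1 and 58.1 CPM in ZOL, against 0 reads and 9.15 CPM in PBS. Pold2, a subunit of polymerase delta, had 122 CPM in ZOL and 1.61 CPM in PBS (75.6-fold higher, 25.8 to 366.7, from 3 PBS reads). Pold1, its catalytic subunit, had 47.6 CPM in ZOL and 1.08 CPM in PBS. Pole, the catalytic subunit of polymerase epsilon, did not follow: it stood at 46.3 CPM in ZOL and 42.0 CPM in PBS (1.10-fold, 0.873 to 1.41). Pole2 had 17.0 CPM in ZOL and 0 reads in PBS.

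The genes of the clamp and its loader were higher in ZOL with 1 exception. Pcna (ENSMUSG00000027342; chromosome 2, 132249162 to 132253314), the sliding clamp, had 220 CPM in ZOL and 1.61 CPM in PBS (136-fold higher, 46.6 to 662, from 3 PBS reads). At 60.8 RPKM it was the highest of the 40 genes per length in ZOL. Rfc2, Rfc3, Rfc4 and Rfc5 had 149, 52.9, 47.5 and 33.5 CPM in ZOL, against 1.08 CPM, 0 reads, 5.92 CPM and 1.08 CPM in PBS. Rfc1, the large subunit, was the exception with 73.3 CPM in ZOL and 82.3 CPM in PBS (1.12-fold lower, 0.943 to 1.33). The RPA genes, which coat single strands, were alike in direction: Rpa1, Rpa2 and Rpa3 had 115, 113 and 43.6 CPM in ZOL, against 2.69 CPM, 0 reads and 0 reads in PBS. Lig1, the ligase of Okazaki fragments, had 112 CPM in ZOL and 17.8 CPM in PBS (6.31-fold higher, 4.48 to 9.20). Fen1, the flap nuclease that acts before it, had 1.53 CPM in ZOL and 0 reads in PBS. An antisense model with 0 reads in each library covers 1909 of its 2422 exon bases. Tmem258 on the opposite strand, with 2689 reads in ZOL, shares 130 of them. What these overlaps do to the Fen1 values was not tested.

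Ribonucleotide reductase held a gene that was higher in ZOL and a gene that was not. Rrm2, the regulated small subunit of ribonucleotide reductase, had 226 CPM in ZOL and 0.538 CPM in PBS, a 420-fold ratio with a counting interval of 75.3 to 16584 because PBS held 1 read. Rrm1, the large subunit (ENSMUSG00000030978; chromosome 7, 102441695 to 102469771), had 112 CPM in ZOL and 175 CPM in PBS (1.56-fold lower, 1.38 to 1.76). Tk1, thymidine kinase, had 211 CPM in ZOL and 4.31 CPM in PBS (49.0-fold higher, 24.8 to 114). Tyms, thymidylate synthase, had 164 CPM in ZOL and 65.1 CPM in PBS (2.53-fold higher, 2.10 to 3.06). Ung, which removes uracil from DNA, was low, with 2.55 CPM in ZOL and 0 reads in PBS. The genes that PBS held at more than 20 CPM were Rrm1, Rfc1, Gins4, Tyms, Pole, Cdc45 and Pola1, and of these Tyms and Pola1 were at least 2-fold higher in ZOL. Some directions and calls among these genes depended on scaling: with median-of-ratios size factors the log2 fold was -0.48 for Gins4 and -0.66 for Pole, both positive with TMM, and 0.45 for Tyms, no longer past 2-fold. With the deposited RPKM values it was -0.43 for Cdc45, 0.95 for Pola1 and 0.01 for Tyms, so that neither Pola1 nor Tyms was past 2-fold, and -1.39 for Rfc1, which was then past 2-fold lower.

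**Figure D2:**
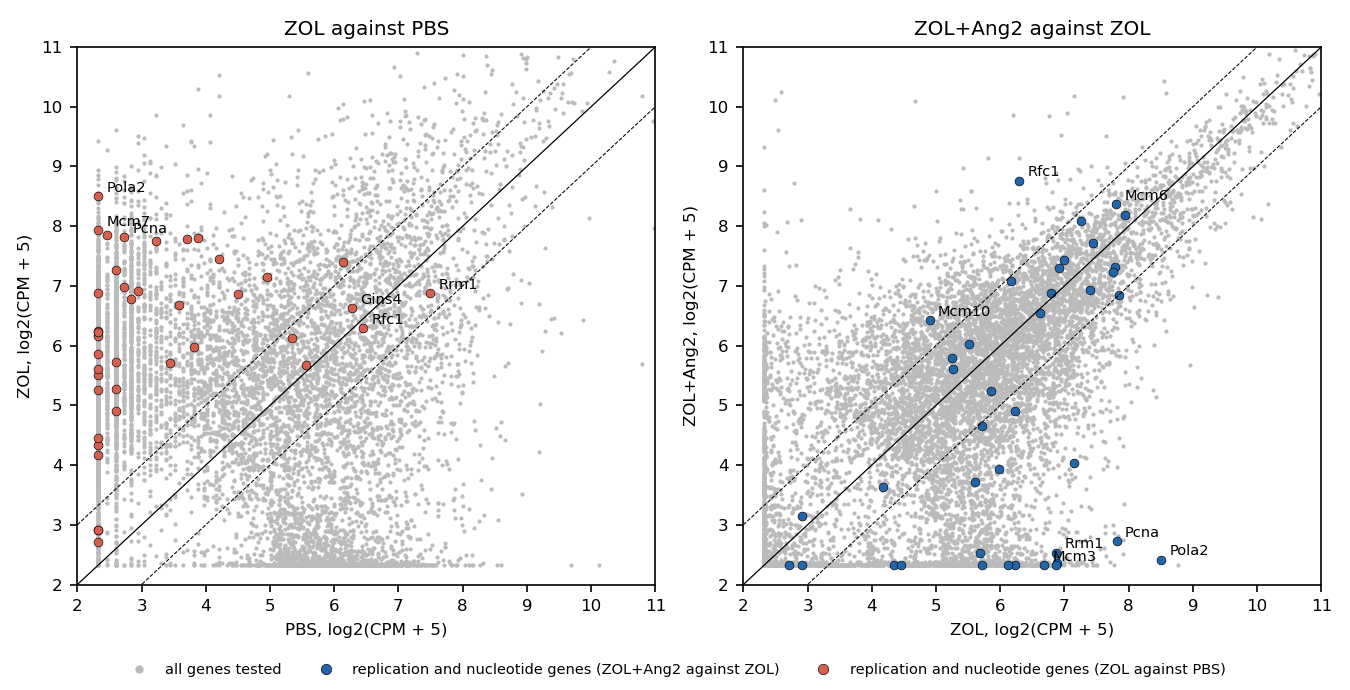
Levels on the log2(CPM + 5) scale of the 40 genes (coloured) over all genes tested (grey), for ZOL against PBS at left and ZOL+Ang2 against ZOL at right; the solid line is equality, the dashed lines are 2-fold and both axes end at 11. At left the genes lie above the 2-fold line in 32 of 40 cases. At right many lie along the diagonal and some at the bottom, among them Pcna, Pola2, Mcm3 and Rrm1. Others, such as Pola1 and Prim2, lie between, and Rfc1 and Mcm10 lie above the upper 2-fold line.

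The comparison of ZOL+Ang2 with ZOL concerns what the addition of Ang2 goes with. Rpa1, Tk1 and the genes Mcm2 to Mcm7 other than Mcm3 stayed within 2-fold, whereas Pcna, most polymerase genes, Lig1 and several licensing genes were lower, some down to 0 reads. Of the 40 genes, 17 (42.5%) were at least 2-fold lower and 2 (5%) at least 2-fold higher, beside 24.8% and 16.2% of all genes tested. The median log2 fold was -0.57 over the 40 (-0.81 with genes at 0 reads at their limit) and -0.02 over all genes tested. By role, 6 of 8 polymerase and primase genes, 4 of 10 licensing genes, 2 of 6 clamp and loader genes, 2 of 3 RPA genes, 1 of 6 MCM genes, 1 of 2 Okazaki genes and 1 of 5 nucleotide genes were lower. The 2 higher genes were Mcm10 and Rfc1. With median-of-ratios size factors 16 were lower and 4 higher.

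Within the MCM ring, 5 subunits had 990 to 2862 reads in ZOL+Ang2 and the sixth had none. Mcm6 had 326 CPM in ZOL+Ang2 and 218 CPM in ZOL, a ratio between 1.42 and 1.57. Mcm7 had 288 CPM in ZOL+Ang2 and 241 CPM in ZOL, Mcm4 206 CPM in ZOL+Ang2 and 170 CPM in ZOL, and Mcm2 113 CPM in ZOL+Ang2 and 106 CPM in ZOL. Mcm5 had 154 CPM in ZOL+Ang2 and 215 CPM in ZOL (1.40-fold lower, 1.31 to 1.49). Mcm3 (ENSMUSG00000041859; chromosome 1, 20802968 to 20820312) had 0 reads in ZOL+Ang2 and 97.9 CPM from 1537 reads in ZOL, at least 286-fold lower. No other gene's exons overlap those of Mcm3 in the annotation. Per exon length the 6 genes spanned 0 RPKM (Mcm3) to 52.3 RPKM (Mcm6) in ZOL+Ang2 and 10.1 RPKM (Mcm2) to 36.0 RPKM (Mcm7) in ZOL.

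The licensing partners CDT1 and CDC6 parted in the same way. Cdt1 had 131 CPM in ZOL+Ang2 and 66.9 CPM in ZOL (1.96-fold higher, 1.80 to 2.13). It was within 2-fold on the log2(CPM + 5) scale, at 0.92, and past 2-fold at 1.09 both with median-of-ratios size factors and with the deposited RPKM values. Cdc6 (ENSMUSG00000017499; chromosome 11, 98907801 to 98923940) had 0 reads in ZOL+Ang2 and 70.5 CPM in ZOL (at least 206-fold lower). Cdc45 had 0 reads in ZOL+Ang2 and 64.8 CPM in ZOL (at least 189-fold lower), and the exons it shares with Ufd1 span 209 bases. Mcm10 had 80.7 CPM in ZOL+Ang2 and 24.8 CPM in ZOL (3.25-fold higher, 2.87 to 3.69). Of the GINS genes, Gins4 had 88.1 CPM in ZOL+Ang2 and 93.6 CPM in ZOL, Gins3 7.41 CPM in ZOL+Ang2 and 13.0 CPM in ZOL, Gins2 24.9 CPM in ZOL+Ang2 and 70.0 CPM in ZOL, and Gins1 0 reads in ZOL+Ang2 and 15.3 CPM in ZOL. Gins4, the GINS gene that PBS also held, thus lay within 2-fold across all 3 libraries. Of the Gins2 exon bases, 2758 of 4097 are shared with Gse1 on the opposite strand, whose own reads were 0 in ZOL+Ang2 and 22 in ZOL. Orc6 had 60.4 CPM in ZOL+Ang2 and 40.8 CPM in ZOL.

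Polymerase genes showed the most lower members. Pola2 had 3 reads in ZOL+Ang2, or 0.342 CPM, and 359 CPM in ZOL (1051-fold lower, 359 to 5097). Pola1, the catalytic subunit, had 11.4 CPM in ZOL+Ang2 and 137 CPM in ZOL (12.0-fold lower, 9.82 to 14.8). Prim2 had 10.4 CPM in ZOL+Ang2 and 58.1 CPM in ZOL (5.60-fold lower, 4.51 to 7.02). Prim1, the catalytic primase subunit in the same complex, went the other way with 50.7 CPM in ZOL+Ang2 and 33.1 CPM in ZOL (1.53-fold higher, 1.35 to 1.74). In polymerase delta, Pold2 had 168 CPM in ZOL+Ang2 and 122 CPM in ZOL, while Pold1 had 0 reads in ZOL+Ang2 and 47.6 CPM in ZOL (at least 139-fold lower). In polymerase epsilon both genes were low: Pole had 0.798 CPM in ZOL+Ang2 and 46.3 CPM in ZOL (58.0-fold lower, 28.0 to 145), and Pole2 had 0 reads in ZOL+Ang2 and 17.0 CPM in ZOL.

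Pcna, the highest per length in ZOL, had 14 reads in ZOL+Ang2, which is 1.60 CPM against 220 CPM in ZOL (138-fold lower, 82.1 to 253). Its processed pseudogene Pcna-ps2, a near copy that can take its reads, had 0 reads in ZOL+Ang2 and 27 in ZOL. Rfc1 (ENSMUSG00000029191; chromosome 5, 65261850 to 65335670) had 429 CPM in ZOL+Ang2 and 73.3 CPM in ZOL (5.86-fold higher, 5.48 to 6.26), and at 53.3 RPKM it was also above its 8.07 RPKM in ZOL. Rfc2 had 266 CPM in ZOL+Ang2 and 149 CPM in ZOL, Rfc5 43.7 CPM in ZOL+Ang2 and 33.5 CPM in ZOL, and Rfc3 32.6 CPM in ZOL+Ang2 and 52.9 CPM in ZOL. Rfc4 had 20.3 CPM in ZOL+Ang2 and 47.5 CPM in ZOL (2.34-fold lower, 1.99 to 2.77), with 194 exon bases shared with Eif4a2. Rfc4 was close to the 2-fold line, with a log2 fold of -1.05, and was within 2-fold at -0.86 with median-of-ratios size factors, where Rfc2 was just past 2-fold higher. RNA of all 5 loader genes was thus read in ZOL+Ang2, while RNA of Pcna, the clamp gene, was near 0. Protein was not measured. Rpa1 had 153 CPM in ZOL+Ang2 and 115 CPM in ZOL, Rpa2 1 read in ZOL+Ang2 and 113 CPM in ZOL, and Rpa3 8.21 CPM in ZOL+Ang2 and 43.6 CPM in ZOL. Lig1 had 0 reads in ZOL+Ang2 and 112 CPM in ZOL (at least 328-fold lower). It shares 247 exon bases with Zswim9 on the opposite strand, whose own reads were 263 in ZOL+Ang2 and 0 in ZOL.

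Ribonucleotide reductase parted again. Rrm1 had 7 reads in ZOL+Ang2, or 0.798 CPM, and 112 CPM in ZOL (141-fold lower, 68.1 to 350), whereas Rrm2 had 110 CPM in ZOL+Ang2 and 226 CPM in ZOL (2.04-fold lower). On the log2(CPM + 5) scale Rrm2 lay just inside 2-fold, and just past it with a prior of 1 CPM or with all libraries thinned to the smallest. Tk1 had 146 CPM in ZOL+Ang2 and 211 CPM in ZOL, and Tyms 118 CPM in ZOL+Ang2 and 164 CPM in ZOL. Ung had 3.88 CPM in ZOL+Ang2 and 2.55 CPM in ZOL.

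**Figure D3:**
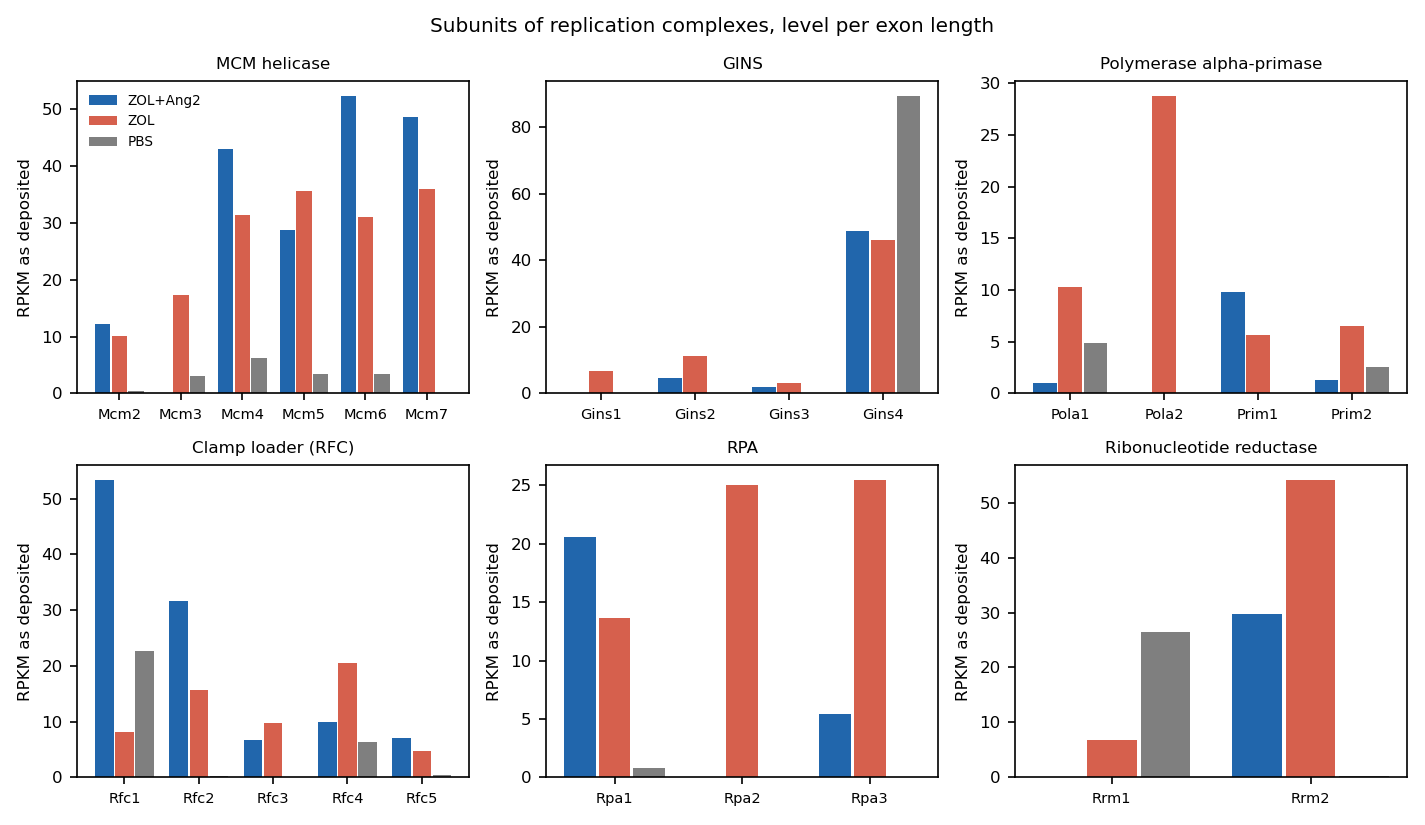
RPKM as deposited for the subunits of 6 complexes, with bars for ZOL+Ang2, ZOL and PBS in that order, each 1 library. In ZOL each subunit has a bar. In ZOL+Ang2 Mcm3, Gins1, Pola2, Rpa2 and Rrm1 lie at or near 0, and their complexes each also have a subunit that does not. Pola1, Prim2 and Gins3 are low in ZOL+Ang2 too, at 0.967, 1.31 and 2.05 RPKM. In PBS Gins4, Rfc1 and Rrm1 stand out.

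Genes at or near 0 reads in ZOL+Ang2 were counted as such. Of the 37 genes with at least 10 CPM in ZOL, 9 had at most 3 reads in ZOL+Ang2 (24.3%): Cdc45, Cdc6, Gins1, Lig1, Mcm3, Pola2, Pold1, Pole2 and Rpa2. The same held for 17.3% of the 9310 genes at that ZOL level. Among genes with at least 50 CPM in ZOL it held for 6 of 26 (23.1%) and for 5.96% of 4175. Exactly 0 reads in ZOL+Ang2 were found for 7 of the 37 and 14.1% of all genes at the lower level, and for 4 of the 26 and 4.53% at the higher. At most 3 reads in PBS were found for 20 of the 37 (54.1%) and for 44.3% of the 9310 genes, and with at least 50 CPM for 11 of 26 (42.3%) and for 32% of 4175. With exactly 0 reads in PBS these were 13 of the 37 and 30.8%, and 7 of the 26 and 18.8%. Across the 3 libraries ZOL was highest for 25 of the 40 genes and for 35.9% of all genes tested. PBS alone was lowest for 26 of the 40 and for 50.7%. Ties, such as Cdc6 with 0 reads in both PBS and ZOL+Ang2, were not counted. The share of the 40 genes near 0 was thus closer to the background at the lower level. The 9 genes had a median of 70.5 CPM in ZOL (15.3 to 359) and a median exon length of 3752 bases. The other 28 had a median of 99.6 CPM in ZOL (13.0 to 241) and a median exon length of 4262 bases. The ranges of level and length overlapped.

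ZOL+Ang2 and ZOL share PBS as their control, and each was set against it on its own. In ZOL+Ang2 against PBS, 21 of the 40 genes (52.5%) were at least 2-fold higher and 5 (12.5%) at least 2-fold lower, beside 44.2% and 33.1% of all genes tested. The median log2 fold was 1.26 over the 40 and 0.48 over all genes tested. With median-of-ratios size factors the median of all genes was -0.23, and 46.0% of all genes past 2-fold were higher instead of 57.1%. The lower genes were Mcm3, Cdc45, Pole, Lig1 and Rrm1. Rrm1 had 0.798 CPM in ZOL+Ang2 and 175 CPM in PBS (220-fold lower, 105 to 551), and Pole had 0.798 CPM in ZOL+Ang2 and 42.0 CPM in PBS (52.6-fold lower, 24.4 to 135). Among the higher genes, Rfc2 had 266 CPM in ZOL+Ang2 and 1.08 CPM in PBS, Rfc1 429 CPM in ZOL+Ang2 and 82.3 CPM in PBS, and Mcm6 326 CPM in ZOL+Ang2 and 9.69 CPM in PBS. Pcna did not differ beyond counting error, at 1.60 CPM in ZOL+Ang2 and 1.61 CPM in PBS (1.01-fold lower, 0.186 to 3.62).

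Among 40 other replication genes (further ORC and polymerase subunits, checkpoint mediators, histone chaperones and nucleotide enzymes), the comparison of ZOL with PBS had 20 past 2-fold upward and 4 downward, where all genes tested had 49.2% higher and 29.4% lower. Set against ZOL, ZOL+Ang2 had 2 of these 40 higher and 13 lower, beside 16.2% and 24.8% of all genes tested. Dtymk, which makes dTDP, had 186 CPM in ZOL+Ang2, 230 CPM in ZOL and 0 reads in PBS, and Asf1b, a histone chaperone, had 162, 151 and 2.15 CPM in ZOL+Ang2, ZOL and PBS. Chtf18, of an alternative clamp loader, had 0 reads in ZOL+Ang2, 21.3 CPM in ZOL and 157 CPM in PBS, and Pold3 had 21.7, 8.47 and 64.6 CPM. Timeless, a fork protection gene, had 0 reads in ZOL+Ang2, 60.9 CPM in ZOL and 0 reads in PBS. Clspn, which carries the checkpoint signal, had 35.1 CPM in ZOL+Ang2, and in ZOL and in PBS 0 reads, and Mcmbp, which binds MCM proteins, had 0.228, 61.9 and 56.5 CPM.

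Of the mitotic genes, 18 of 20 were past 2-fold upward and none downward in ZOL against PBS, and 1 higher and 9 lower in ZOL+Ang2 against ZOL. Beside this and the following lists, all genes tested had 49.2% higher and 29.4% lower in ZOL against PBS. In ZOL+Ang2 against ZOL they had 16.2% higher and 24.8% lower. Some pairs of mitotic genes also parted. Ccnb2 had 227 CPM in ZOL+Ang2, 189 CPM in ZOL and 0 reads in PBS, while Ccnb1, the other B-type cyclin, had 0 reads in ZOL+Ang2, 104 CPM in ZOL and 0 reads in PBS. The motor gene Kif11 had 0.570 CPM in ZOL+Ang2 and 196 CPM in ZOL, and the kinase gene Aurkb 101 CPM in ZOL+Ang2 and 33.5 CPM in ZOL. Of 17 G1/S regulators, 10 were higher and 2 lower in ZOL against PBS, and 2 higher and 2 lower in ZOL+Ang2 against ZOL. Cdk4, the kinase of D-type cyclins, had 357, 419 and 10.2 CPM in ZOL+Ang2, ZOL and PBS, and Ccna2, the S phase cyclin, 0.456, 122 and 5.92 CPM. Of 13 E2F and pocket protein genes, 7 were higher and 3 lower in ZOL against PBS, and 2 higher and 7 lower in ZOL+Ang2 against ZOL. E2f1, an activator of replication genes, had 0 reads in ZOL+Ang2, 46.2 CPM in ZOL and 0 reads in PBS. E2f3 had 0 reads in ZOL+Ang2, 5.22 CPM in ZOL and 154 CPM in PBS, Tfdp1, their DNA-binding partner, 149, 64.8 and 1.61 CPM, and the retinoblastoma gene Rb1 38.1, 0.956 and 1.08 CPM.

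**Figure D4:**
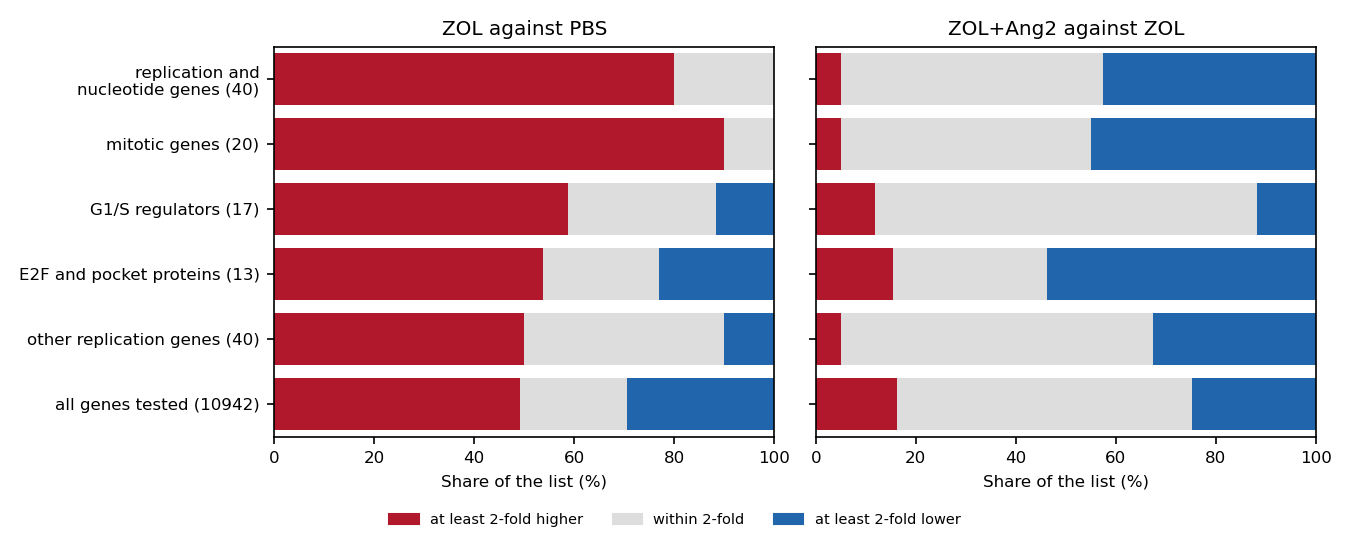
Share of each gene list (its size in brackets) that was at least 2-fold higher, within 2-fold or at least 2-fold lower on the log2(CPM + 5) scale, for ZOL against PBS at left and ZOL+Ang2 against ZOL at right. At left the replication and mitotic lists have no lower genes, with 32 of 40 and 18 of 20 higher. Of the other replication genes 20 of 40 are higher and 4 lower.

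Markers of cell types differed between the libraries, some in the direction of the replication genes and some not. Beside the counts below, 49.2% of all genes tested were higher and 29.4% lower in ZOL against PBS. In ZOL+Ang2 against ZOL these shares were 16.2% and 24.8%. The 8 carcinoma and epithelial markers summed to 4559 CPM in ZOL+Ang2, 4706 CPM in ZOL and 593 CPM in PBS, and in ZOL against PBS 5 of the 8 were past 2-fold upward and 1 downward. Of these, Krt8 had 2057, 2451 and 165 CPM and Krt18 had 1885, 1911 and 151 CPM in ZOL+Ang2, ZOL and PBS, and Krt5 had 0 reads in each library. Between ZOL+Ang2 and ZOL 1 of these 8 was higher and 1 lower. The 8 endothelial markers summed to 967 CPM in ZOL+Ang2, 2665 CPM in ZOL and 2495 CPM in PBS. Cldn5 made up most of the PBS sum, with 326, 1151 and 1772 CPM in ZOL+Ang2, ZOL and PBS. The markers differed in direction in ZOL against PBS: 4 were past 2-fold upward and none downward, while Cldn5, Tek and Tie1 were lower within 2-fold. In ZOL+Ang2 against ZOL 6 of the 8 were lower. Of the 5 lymphatic markers that matched 1 gene, Lyve1 had 0 reads in each library, and Prox1 had 2 reads in PBS alone. The other lymphatic markers were present and differed in direction: Flt4 had 23.8 CPM in ZOL+Ang2, 70.9 CPM in ZOL and 1 read in PBS, and Mmrn1 had 12.0, 11.5 and 155 CPM in ZOL+Ang2, ZOL and PBS. The series title names lymphatic vessels; of the 5 markers Lyve1 and Prox1 were at or near 0 in each library and the other 3 were not. Of the genes behind the surface proteins in the labels, Pecam1, which encodes CD31, had 177, 475 and 1.08 CPM in ZOL+Ang2, ZOL and PBS. The PBS value of Pecam1 is 2 reads, under the limit of 3 reads, although the cells are described as carrying CD31. Pdpn, which encodes podoplanin, had 171, 67.5 and 18.8 CPM in ZOL+Ang2, ZOL and PBS. Ptprc, which encodes CD45, the protein the cells are described as lacking, had 76.1, 25.1 and 155.5 CPM in ZOL+Ang2, ZOL and PBS.

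Set against ZOL, ZOL+Ang2 had higher blood and stroma markers: the 6 erythroid and the 6 fibroblast markers were all at least 2-fold higher, beside 16.2% of all genes tested. The erythroid sum was 25164.5 CPM in ZOL+Ang2, 7.20 CPM in ZOL and 190.5 CPM in PBS, led by Hba-a1 with 12334, 2.04 and 137 CPM. The fibroblast sum was 10779.7 CPM in ZOL+Ang2, 454 CPM in ZOL and 343 CPM in PBS, led by Col1a1 with 4280, 53.5 and 189 CPM. Selection of cells without CD45 would remove myeloid cells and lymphocytes, whose markers were nonetheless read. The 7 myeloid markers, Ptprc among them, summed to 1688, 124 and 1175 CPM (6 higher in ZOL+Ang2 against ZOL, with Cd68 at 0 reads in each library), the 5 mural markers to 357, 838 and 2.69 CPM (2 higher and 2 lower), and the 4 lymphocyte markers to 0, 0.446 and 266 CPM (with all 4 at 0 reads in ZOL+Ang2). Their part in the values of the replication genes was not tested.

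On the genome, 8 of the 40 genes lie on chromosome 5 (Mcm7, Pole, Rfc1, Rfc2, Rfc3, Rfc5, Tyms and Ung) and 6 on chromosome 8 (Cdt1, Gins2, Gins3, Gins4, Mcm5 and Orc6). The chromosome 5 genes ran both ways in ZOL+Ang2 against ZOL, with Rfc1 5.86-fold higher and Pole 58.0-fold lower. Exons of 10 of the 40 genes overlap another gene that had reads, and without strand such reads cannot be told apart. Rfc2, Pole, Pole2 and Rpa1 overlap only genes with 0 reads in each library and are not among the 10.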

How the data were processed

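The deposited files hold RPKM per gene, which the authors computed as reads per kilobase of gene over a library total left undefined. The submitters' processing notes name mm10 and the tools HISAT2 2.2.1, featureCounts 2.0.6 and fastp; no source read here states annotation, strand or mate handling. The design assumed counts might be recoverable. RPKM times the exon length in GENCODE M21 was a whole multiple of 1 step per library (tolerance 0.01) for 96.2%, 96.4% and 96.9% of values above 0 in ZOL+Ang2, ZOL and PBS; 37 genes without a length were left out. The recovered reads come to 0.785, 0.701 and 1.50 times the totals the steps imply, so they may not be the authors' counts.

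TMM factors turned reads into CPM (0.953, 0.946 and 1.11; trims of 30% and 5%). The background was every gene averaging at least 10 CPM. Counts of genes past 2-fold use log2(CPM + 5), which understates differences of low genes, over all 40 genes whatever their level. Folds given for single genes are CPM ratios, and their 95% intervals are exact binomial ones given the summed reads; against 0 reads it is at least the ratio to 3 reads in that library. Single libraries allow no test. The steps were tested on simulated reads with Python 3.11.15, numpy 2.4.6, pandas 2.3.3 and scipy 1.17.1. The 40 genes, the other lists (further replication, E2F and pocket protein, G1/S, mitotic and cell type markers) and the alternatives were chosen with earlier results of these data known. Further genes were named as the 2 highest and 2 lowest of each list with a mean of at least 10 CPM in both comparisons, of which some are given, and the 2 markers of highest mean CPM; others were chosen after their values were seen. Ccl21a matched 2 genes and was left out. Alternatives covered scaling, prior, filter, thinning, the deposited RPKM, calls by counting interval and genes without exon overlap.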

Additional observations from a re-analysis of the deposited data

How the results depend on the processing

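In ZOL against PBS 24 to 35 genes were at least 2-fold higher. None was lower in the 40, but 1 was lower with all libraries thinned to the smallest, 2 with the deposited RPKM values and a pseudocount of 1, and 1 with median-of-ratios size factors. In ZOL+Ang2 against ZOL 12 to 20 genes were lower, and 2 or 3 were higher except with median-of-ratios size factors, where 4 were. The lowest counts, 24 and 12, come from counting 29 genes, those without exon overlap with a gene that had reads and with whole reads; in ZOL+Ang2 against PBS 3 of these 29 were lower, and 5 to 7 under the other settings. The median log2 fold of the 40 minus that of all genes was 2.17 in ZOL against PBS, 3.15 with a prior of 1 CPM and 1.66 to 2.97 otherwise. In ZOL+Ang2 against ZOL it was -0.55 (-0.85 to -0.41), and 16 genes were lower when scaling and filter left out the PBS library, an alternative chosen after seeing the data, as was the one on exon overlap. In ZOL+Ang2 against PBS it was 0.78 and -0.17 with a filter of 50 CPM, where fewer genes were tested and the share of the 40 genes that were higher no longer exceeded that of all genes. Of the 640 values of the 40 genes under alternatives, 274 moved outside the counting interval of the main value and 366 did not. None changed direction where the main value was past 2-fold. Main values within 2-fold were not judged for direction, and some of those did change sign, such as Gins4 in ZOL against PBS. No paired analysis was possible because each group is 1 library, and for the same reason no replicate could be left out. Depth limits the PBS values most: 23 of the 40 genes had at most 3 reads there.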
